A study of Mus musculus with 4 samples.

Results

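The translation initiation and elongation factors measured here were the genes whose symbols start with *Eif1* to *Eif6* or with *Eef1* or *Eef2*, without the eIF2α kinase genes (*Eif2ak*) and the Y-linked eIF2γ gene. This gave 57 genes of the 21904 genes on the array, each represented by 1 transcript cluster (the set of probes for a gene), that with the highest mean over the 4 mice where a gene had several. Salivary gland RNA was compared between 2 *Nfkbiz*-/- mice, M47 and M49, and 2 wild-type (*Nfkbiz*+/+) mice, M30 and M55, on 1 whole-transcript array each. All 4 mice were 20 weeks old and kept after weaning with mice of their own genotype, and the parotid, submandibular and sublingual glands of a mouse gave 1 RNA sample. The methods give female mice bred from *Nfkbiz*+/- founders of a mixed background, and saliva collected at that age after an injection of pilocarpine, without the time between it and the removal of the glands. Among the labels, that of M47 alone gives a sex (female) and a strain (ICR).

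Protein synthesis begins when eIF2 brings the initiator tRNA to the small ribosomal subunit, together with eIF1, eIF1A, eIF5 and the large scaffold eIF3, while eIF4F (the cap-binding eIF4E, the scaffold eIF4G and the helicase eIF4A) recruits the mRNA. eIF2B recharges eIF2 with GTP, and phosphorylation of eIF2α blocks that step under stress. During elongation eEF1A delivers aminoacyl-tRNA, the eEF1B subunits recharge eEF1A, and eEF2 moves the ribosome along the mRNA. Salivary acinar cells are specialised for making secretory protein and depend on this machinery throughout. IκB-ζ, the protein encoded by *Nfkbiz*, is a nuclear regulator of NF-κB target genes.

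The deposited values were log2 expression values, and their median was 4.83 to 4.89 in the 4 mice, with an upper quartile of 6.13 to 6.19. The 12 acinar marker genes found averaged 10.89 in M47 and 10.89 in M49, against 10.94 in M30 and 10.44 in M55, well above that quartile. *Nfkbiz* itself measured 6.18 in M47 and 5.78 in M49, against 5.04 in M30 and 7.29 in M55 on the log2 scale. The *Nfkbiz*-/- mice lay inside the range of the *Nfkbiz*+/+ mice. No source used here says whether its probes fall in the deleted part, so the gene gave no check of the genotypes. Of the 57 factor genes, 53 had a mean above the median of all clusters and 1, *Eif5a2*, had a mean below the lower quartile. A log2 fold change below is *Nfkbiz*-/- minus *Nfkbiz*+/+ and a negative one means lower in *Nfkbiz*-/- mice. A gene was called when its unadjusted p from limma was under 0.05 and its fold change at least 1.5. By the methods, littermates could not fill every group, and mice born more than 4 days apart were housed by genotype. No source used here says whether the mice of a genotype were littermates, so p-values do not reach beyond these 4 animals. For each gene limma weighs the spread between them (2 residual degrees of freedom) with a spread borrowed from all clusters (5.53 prior degrees of freedom). The SE and p of a gene thus reflect both. An exact 2-sided permutation test of 2 mice against 2 cannot give a p below 0.333.

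The factor genes as a set lay below their *Nfkbiz*+/+ level, by a small amount. Their median log2 fold change was −0.28, against −0.02 over all 22206 clusters, and 45 of 57 had a negative one (78.9%, against 53.1% of all clusters). Both *Nfkbiz*-/- mice were below both *Nfkbiz*+/+ mice at 35 of the 57 (61.4%, against 21.5% of all clusters), and above both at 7 (12.3%, against 18.2%). Called lower were 5 genes, *Eif1*, *Eif1b*, *Eif3h*, *Eif3i* and *Eif4a1* (8.77% of the members, against 3.69% of all clusters), and none was called higher (against 2.93%). Among the 11103 clusters above the median signal, 4.67% were called lower. A further 3 genes, *Eif3f*, *Eef1b2* and *Eef1d*, had an unadjusted p under 0.05 with a smaller fold change, which made 8 lower genes at that threshold (14.0%, against 5.07%) and none higher (against 4.01%). No call held after Benjamini-Hochberg adjustment over all clusters, where the adjusted p of these 8 genes from limma was 0.470 to 0.540. The smallest adjusted p of any cluster was 0.0539. Each of the 5 calls was lost in at least 1 other fit. By the methods' t-test 2 were called with equal variances (*Eif3h* and *Eif3i*) and 1 with unequal variances (*Eif3i*). Counted in either direction, 8.77% of the members were called with all mice, against 6.62% of all clusters. That was 5.26% without M47 (3 genes, against 5.05% of all clusters), 1.75% without M49 (1 gene, against 5.08%), 24.6% without M30 (14 genes, against 12.1%) and 3.51% without M55 (2 genes, against 8.93%). The members' share was thus below that of all clusters in the fits without M49 and without M55.

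**Figure D1:**
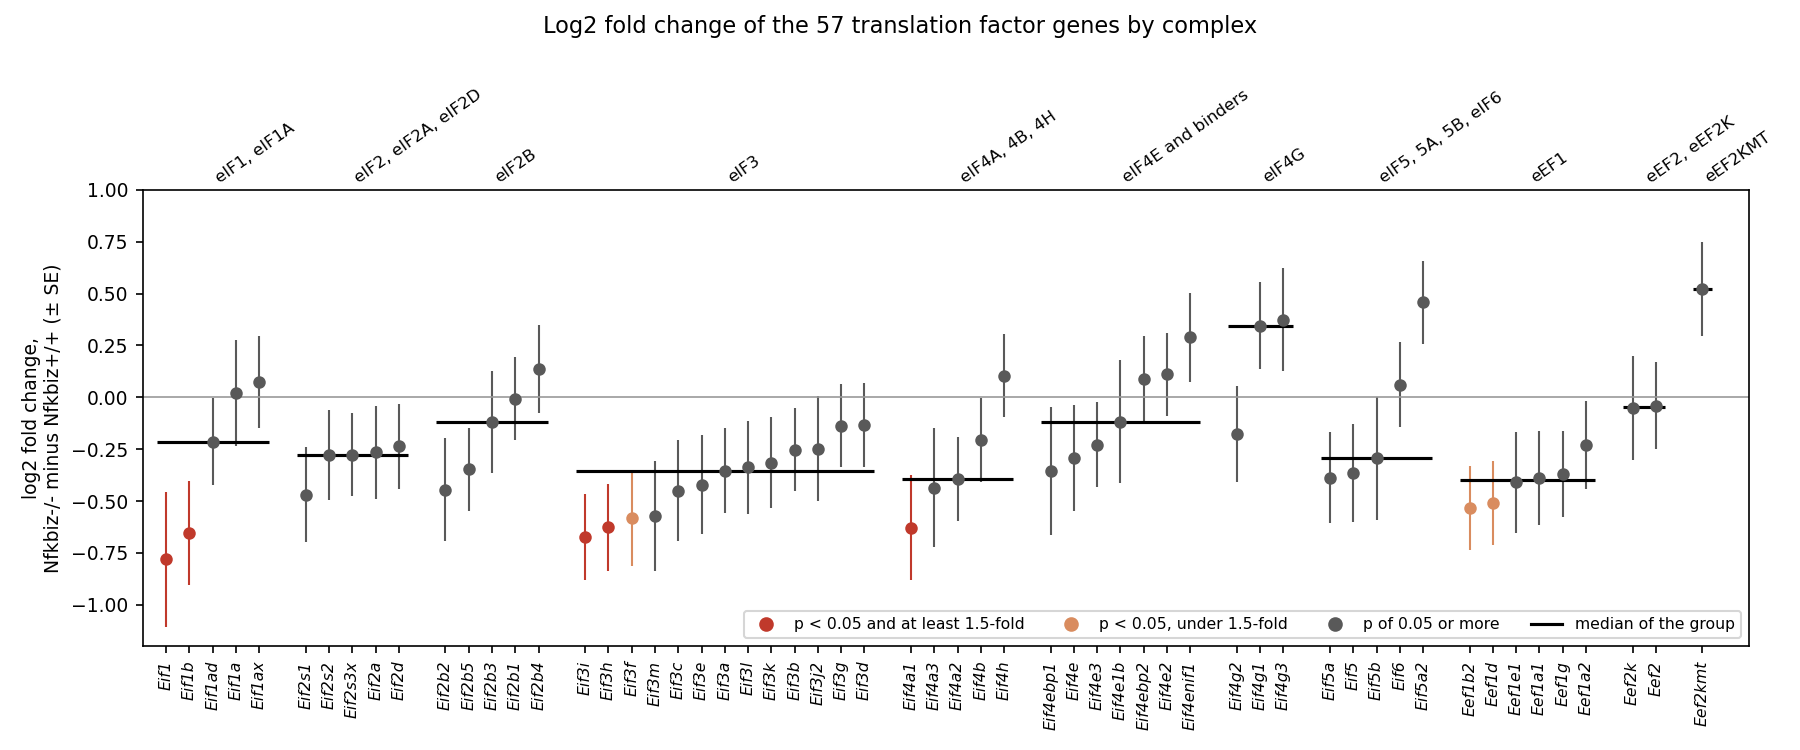
Log2 fold change (*Nfkbiz*-/- minus *Nfkbiz*+/+) of each of the 57 factor genes, grouped by complex, with error bars of 1 standard error from limma (n = 2 mice per genotype) and a black line at the median of each group. All 13 eIF3 genes and all 6 eEF1 genes lie below 0, while *Eif4g1*, *Eif4g3*, *Eif5a2* and *Eef2kmt* lie above it.

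The scanning factors held the lowest fold change of the set. *Eif1* (chromosome 11, 100319885 to 100322096 in the deposited annotation) encodes eIF1, which keeps the small subunit scanning until a start codon is found. It measured 8.45 in M47 and 8.63 in M49, against 8.83 in M30 and 9.82 in M55 on the log2 scale. Both *Nfkbiz*-/- mice were below both *Nfkbiz*+/+ mice, but M30 was closer to them than to M55. The log2 fold change was −0.78 (SE 0.33, limma adjusted p = 0.540), −0.29 without M55 and −1.28 without M30. *Eif1b* (chromosome 9, 120492606 to 120495330) encodes a close relative of eIF1 and measured 5.63 in M47 and 5.04 in M49, against 5.95 in M30 and 6.03 in M55 on the log2 scale. Here the *Nfkbiz*+/+ mice were alike and the *Nfkbiz*-/- mice spread, with a log2 fold change of −0.66 (SE 0.25, limma adjusted p = 0.520) that was −0.36 without M49. The genes of eIF1A, which works beside eIF1 in scanning, lay near their *Nfkbiz*+/+ level. *Eif1a* had a log2 fold change of 0.02 and *Eif1ax* of 0.07, with overlap between the genotypes at both. *Eif1ad*, named for its eIF1A-like domain, had one of −0.21.

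The 3 genes of the eIF2 trimer and the 2 of the alternative initiator tRNA carriers all had lower values in both *Nfkbiz*-/- mice than in either *Nfkbiz*+/+ mouse. Over all clusters, 21.5% did. None of these genes was called, against 6.62% of all clusters. *Eif2s1* encodes eIF2α, the subunit phosphorylated under stress, and measured 6.50 in M47 and 6.47 in M49, against 6.74 in M30 and 7.18 in M55 on the log2 scale. Both *Nfkbiz*-/- values were alike and M55 was the highest. Its log2 fold change was −0.47 (SE 0.23, limma adjusted p = 0.592), and −0.25 without M55. *Eif2s3x* encodes eIF2γ, which binds the tRNA, and measured 7.84 in M47 and 7.85 in M49, against 8.06 in M30 and 8.19 in M55 on the log2 scale. The gap between genotypes was small but wider than the gap within either, with a log2 fold change of −0.28 (SE 0.20, limma adjusted p = 0.739). *Eif2s2* (eIF2β), *Eif2a* and *Eif2d* had log2 fold changes of −0.28, −0.27 and −0.24. The median of these 5 genes was −0.28.

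Of the 5 eIF2B genes 4 had a negative log2 fold change (against 53.1% of all clusters), and none was called (against 6.62%). Their median was −0.12, and −0.019 without M47, −0.35 without M49 and −0.017 without M55. *Eif2b2*, a regulatory subunit, measured 6.34 in M47 and 6.16 in M49, against 6.97 in M30 and 6.43 in M55 on the log2 scale. Here it was M30, not M55, that stood highest, and the log2 fold change was −0.45 (SE 0.25, limma adjusted p = 0.635), −0.17 without M30 and −0.72 without M55. *Eif2b5*, the catalytic subunit, measured 4.24 in M47 and 4.28 in M49, against 4.67 in M30 and 4.55 in M55 on the log2 scale. The genotypes did not overlap, with a log2 fold change of −0.35 (SE 0.20, limma adjusted p = 0.654). *Eif2b1*, *Eif2b3* and *Eif2b4* overlapped between genotypes, with log2 fold changes from −0.12 to 0.14.

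The genes of eIF3, the largest initiation factor, lay uniformly below their *Nfkbiz*+/+ level. All 13 eIF3 genes had a negative log2 fold change (against 53.1% of all clusters), from −0.67 to −0.14 with a median of −0.35. At 12 of them both *Nfkbiz*-/- mice were below both *Nfkbiz*+/+ mice (against 21.5% of all clusters). *Eif3i* and *Eif3h* were called lower (against 3.69% of all clusters), and no eIF3 gene was called higher (against 2.93%). *Eif3i* (chromosome 4, 129591960 to 129600648) encodes a subunit made of WD40 repeats and measured 5.98 in M47 and 5.80 in M49, against 6.50 in M30 and 6.63 in M55 on the log2 scale. The gap between the genotypes was wider than that within either, and the log2 fold change was −0.67 (SE 0.21, limma adjusted p = 0.470). This call was lost without M49 (−0.58, unadjusted p = 0.0928 from limma). *Eif3h* (chromosome 15, 51786558 to 51865483) encodes a subunit with an MPN domain and measured 7.18 in M47 and 7.12 in M49, against 7.66 in M30 and 7.89 in M55 on the log2 scale. Again the genotypes stood apart, with a log2 fold change of −0.63 (SE 0.21, limma adjusted p = 0.478). It was not called without M47, without M49 or without M55, at −0.66, −0.59 and −0.51. *Eif3f*, the other MPN subunit, measured 6.98 in M47 and 6.88 in M49, against 7.29 in M30 and 7.74 in M55 on the log2 scale. Its log2 fold change of −0.58 (SE 0.23, limma adjusted p = 0.522) was just short of the fold threshold, and −0.36 without M55. *Eif3m* had a log2 fold change of −0.57 with an unadjusted p of 0.0654 from limma, and one of −0.23 without M55 and −0.91 without M30.

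The subunits that carry a PCI or an MPN domain and build the core of eIF3 (*Eif3a*, *Eif3c*, *Eif3e*, *Eif3f*, *Eif3h*, *Eif3k*, *Eif3l* and *Eif3m*) had a median log2 fold change of −0.44. The median of the other subunit genes (*Eif3b*, *Eif3d*, *Eif3g*, *Eif3i* and *Eif3j2*) was −0.25, although *Eif3i*, the lowest of all 13, is one of them. This division was made after the values were seen and was not tested. *Eif3j2* was the eIF3 gene whose genotypes overlapped, with a log2 fold change of −0.25 and a sign that turned to 0.05 without M55. Its cluster lies on chromosome 2 from 122028546 to 122056598, where RefSeq places *Eif3j1*, while RefSeq places *Eif3j2* on chromosome 18, so this row may measure *Eif3j1*. A second cluster named *Eif3j2*, on chromosome 18, had a log2 fold change of −0.29.

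**Figure D2:**
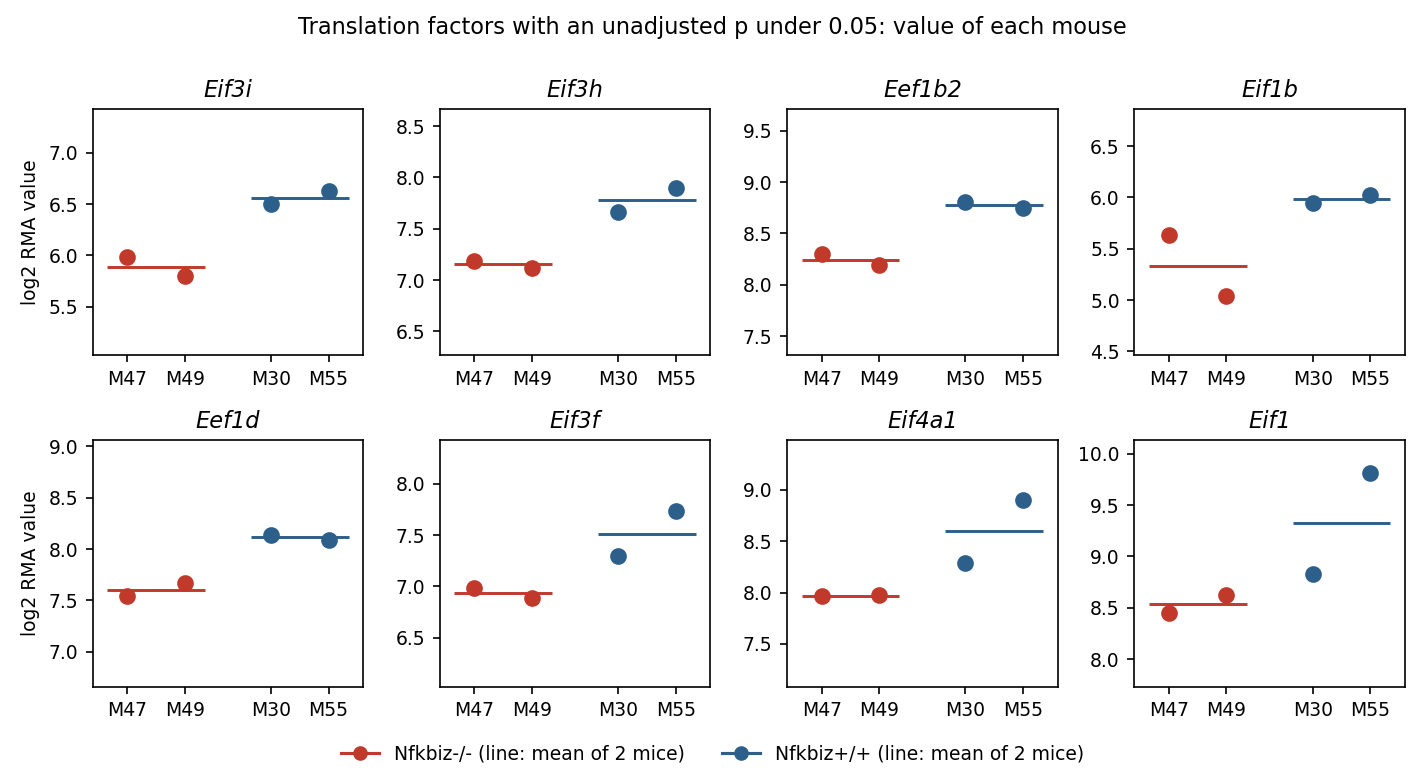
Log2 expression value of each mouse for the 8 factor genes with an unadjusted p under 0.05, each panel spanning the same height of 2.4 log2 units, with the *Nfkbiz*-/- pair M47 and M49 in red on the left, the *Nfkbiz*+/+ pair M30 and M55 in blue on the right, and a line at each mean. Both *Nfkbiz*-/- mice lie below both *Nfkbiz*+/+ mice in every panel, and M55 lies well above M30 for *Eif1* and *Eif4a1*.

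Of the factors that prepare mRNA for the ribosome, the helicase genes lay below and the scaffold genes mostly above their *Nfkbiz*+/+ level. *Eif4a1* (chromosome 11, 69666936 to 69672423) encodes the RNA helicase eIF4A1 and measured 7.96 in M47 and 7.98 in M49, against 8.29 in M30 and 8.90 in M55 on the log2 scale. M47 and M49 differed by little and M55 stood above the other 3 mice. The log2 fold change was −0.63 (SE 0.25, limma adjusted p = 0.526), and −0.32 without M55. *Eif4a2*, its close relative, measured 6.28 in M47 and 6.12 in M49, against 6.58 in M30 and 6.61 in M55 on the log2 scale. The *Nfkbiz*+/+ mice agreed closely here, and the log2 fold change was −0.39 (SE 0.20, limma adjusted p = 0.614), between −0.47 and −0.31 without any 1 mouse. *Eif4a3*, whose helicase belongs to the exon junction complex rather than to initiation, had a log2 fold change of −0.44 that was −0.04 without M55. The helicase cofactor genes *Eif4b* and *Eif4h* had log2 fold changes of −0.21 and 0.10.

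The eIF4G genes were the exception among the complexes. *Eif4g1*, which encodes the main scaffold of eIF4F, measured 9.64 in M47 and 9.88 in M49, against 9.38 in M30 and 9.45 in M55 on the log2 scale. The *Nfkbiz*-/- mice were both above the higher *Nfkbiz*+/+ mouse, with a log2 fold change of 0.35 (SE 0.21, limma adjusted p = 0.674) that was 0.23 without M49. *Eif4g3*, a second scaffold gene, measured 7.31 in M47 and 7.31 in M49, against 7.22 in M30 and 6.64 in M55 on the log2 scale. Most of this gap came from a low M55, since the log2 fold change of 0.38 (SE 0.25, limma adjusted p = 0.705) was 0.09 without that mouse. *Eif4g2*, whose product lacks the eIF4E-binding part, had a log2 fold change of −0.18 with overlap. The median of the 3 genes was 0.35, and none was called (against 6.62% of all clusters).

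The cap-binding protein genes and their inhibitors showed no common direction, with 4 of 7 negative (against 53.1% of all clusters). Their median log2 fold change was −0.12. *Eif4e* measured 6.08 in M47 and 5.91 in M49, against 5.98 in M30 and 6.59 in M55 on the log2 scale. M30 lay between the *Nfkbiz*-/- mice, and the log2 fold change was −0.29 (SE 0.26, limma adjusted p = 0.786) and 0.01 without M55. *Eif4ebp1* encodes 4E-BP1, which holds eIF4E back when mTORC1 is inactive, and measured 6.56 in M47 and 7.43 in M49, against 7.21 in M30 and 7.49 in M55 on the log2 scale. M47 alone stood low, so the log2 fold change of −0.36 (SE 0.31, limma adjusted p = 0.784) became 0.08 without it. *Eif4enif1* encodes 4E-T, which carries eIF4E to the nucleus, and measured 5.37 in M47 and 5.12 in M49, against 4.88 in M30 and 5.03 in M55 on the log2 scale. Here M47 and M49 were the higher mice, with a log2 fold change of 0.29 (SE 0.21, limma adjusted p = 0.742) that was 0.16 without M47. *Eif4e1b*, *Eif4e2*, *Eif4e3* and *Eif4ebp2* had log2 fold changes from −0.23 to 0.11.

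Genes of the later steps of initiation split. *Eif5a* encodes eIF5A, which carries the modified amino acid hypusine and helps stalled ribosomes, and measured 9.59 in M47 and 9.55 in M49, against 9.77 in M30 and 10.14 in M55 on the log2 scale. The genotypes did not overlap and the log2 fold change was −0.39 (SE 0.22, limma adjusted p = 0.647), −0.20 without M55 and −0.57 without M30. Its second gene, *Eif5a2*, ran the other way at a low signal, measuring 2.85 in M47 and 2.90 in M49, against 2.39 in M30 and 2.44 in M55 on the log2 scale. Each genotype was tight, but the log2 fold change of 0.46 (SE 0.20, limma adjusted p = 0.557) had an unadjusted p of 0.0533 and was measured below the lower quartile of each array, near background. *Eif5*, whose product makes eIF2 hydrolyse GTP, and *Eif5b*, whose product joins the subunits, had log2 fold changes of −0.37 and −0.29. *Eif6*, which keeps the subunits apart, had one of 0.06.

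In elongation, the genes grouped as eEF1 lay below their *Nfkbiz*+/+ level and eEF2 close to it. All 6 eEF1 genes had both *Nfkbiz*-/- mice below both *Nfkbiz*+/+ mice (against 21.5% of all clusters). Their log2 fold changes ran from −0.53 to −0.23 with a median of −0.40, and none was called (against 6.62% of all clusters). *Eef1b2* and *Eef1d* encode exchange factor subunits of eEF1B. *Eef1b2* measured 8.30 in M47 and 8.19 in M49, against 8.81 in M30 and 8.75 in M55 on the log2 scale. *Eef1d* measured 7.54 in M47 and 7.67 in M49, against 8.14 in M30 and 8.09 in M55 on the log2 scale. In contrast to *Eif1* and *Eif4a1*, M30 and M55 were nearly equal at both, and the log2 fold changes were −0.53 (SE 0.20, limma adjusted p = 0.516) and −0.51 (SE 0.20, limma adjusted p = 0.522). Leaving out any 1 mouse gave −0.59 to −0.48 for *Eef1b2* and −0.57 to −0.45 for *Eef1d*. *Eef1g*, the remaining eEF1B subunit, had a log2 fold change of −0.37.

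*Eef1a1*, the widespread eEF1A gene, measured 11.74 in M47 and 11.35 in M49, against 11.85 in M30 and 12.01 in M55 on the log2 scale. M49 was the low mouse, and the log2 fold change of −0.39 (SE 0.23, limma adjusted p = 0.654) was −0.20 without it. *Eef1a2*, known as the eEF1A gene of muscle and neurons, measured 4.51 in M47 and 4.31 in M49, against 4.53 in M30 and 4.75 in M55 on the log2 scale. The difference between M47 and M30 was slight, and the log2 fold change was −0.23 (SE 0.21, limma adjusted p = 0.801). *Eef1e1* shares the symbol, but its product belongs to the complex of aminoacyl-tRNA synthetases, and its log2 fold change was −0.41. *Eef2* measured 11.20 in M47 and 11.13 in M49, against 11.09 in M30 and 11.33 in M55 on the log2 scale. The *Nfkbiz*-/- mice lay between the *Nfkbiz*+/+ mice, with a log2 fold change of −0.04 (SE 0.21, limma adjusted p = 0.976). *Eef2k*, the kinase that inactivates eEF2, measured 6.47 in M47 and 6.74 in M49, against 6.92 in M30 and 6.40 in M55 on the log2 scale, and a log2 fold change of −0.05 (SE 0.25, limma adjusted p = 0.973). Neither gene separated the genotypes. *Eef2kmt*, which encodes the enzyme that methylates eEF2 on a lysine, measured 4.90 in M47 and 5.31 in M49, against 4.53 in M30 and 4.63 in M55 on the log2 scale. The *Nfkbiz*-/- mice were higher, with a log2 fold change of 0.52 (SE 0.23, limma adjusted p = 0.551), the highest of the 57, at an unadjusted p of 0.0513, and 0.32 without M49.

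**Figure D3:**
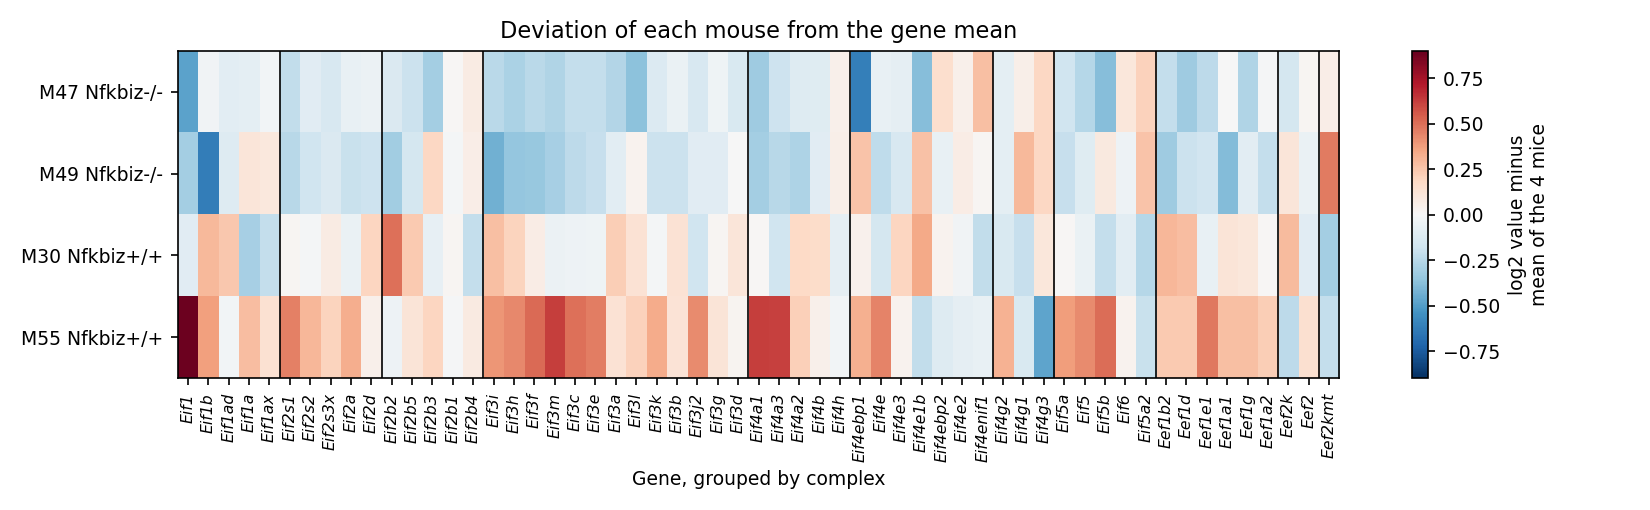
Log2 value of each mouse minus the mean of the 4 mice for each of the 57 genes, with the *Nfkbiz*-/- pair M47 and M49 in the upper rows, the *Nfkbiz*+/+ pair M30 and M55 in the lower rows, and black lines between complexes. Red is above and blue below the gene mean, and M55 is the highest mouse for 34 genes.

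The difference was not shared evenly by the *Nfkbiz*+/+ mice. M47 was the highest of the 4 mice at 4 genes, M49 at 5, M30 at 14 and M55 at 34 (59.6%, against 28.0% of all clusters and 34.5% of those above the median signal). M49 was the lowest at 24 genes, M47 at 17, M30 at 12 and M55 at 4. The median absolute gap was 0.12 between M47 and M49, against 0.24 between M30 and M55 (0.21 and 0.27 over all clusters). At 27 of the 57 members the gap between M30 and M55 was wider than the difference between the genotype means. This was a smaller share than over all clusters (13084 of 22206). M55 was above M30 at 40 of 57, against 10764 of all 22206 clusters and 6158 of the 11103 above the median signal. Without M55 the median of the set was −0.18 with 39 of 57 negative, and without M30 it was −0.34 with 46 of 57 negative. Of the 57 genes, 35 stayed negative and 7 stayed positive without each mouse in turn, while 15 changed sign. Those that kept their sign were the genes at which the genotypes did not overlap, for which no other outcome was possible.

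M55 also stood apart in genes of other cell types. The 13 skeletal muscle markers averaged a log2 value of 3.94 in M47 and 3.89 in M49, against 4.12 in M30 and 5.37 in M55, and 4 were called lower. The 13 adipocyte markers averaged 4.17 in M47 and 4.31 in M49, against 4.62 in M30 and 6.12 in M55, and 6 were called lower. All 13 of each list had a negative log2 fold change, against 53.1% of all clusters, of which 3.69% were called lower. Among the acinar markers M55 was low at *Amy1* (10.93, against 12.87 in M47, 12.92 in M49 and 12.94 in M30). It was also low at *Prpmp5* (5.10, against 9.54 in M47, 9.22 in M49 and 8.79 in M30). It was not low at all of them, with *Aqp5* at 9.77 in M55, against 9.10 in M47, 9.49 in M49 and 9.57 in M30. The 9 erythroid markers, high in both *Nfkbiz*+/+ mice, averaged 4.62 in M47 and 5.44 in M49, against 6.80 in M30 and 6.43 in M55. The 8 macrophage markers averaged 5.74 in M47 and 5.57 in M49, against 4.83 in M30 and 5.31 in M55. Of these 8, 4 were called higher (against 2.93% of all clusters). The 1 that ran the other way was *Adgre1*, with a log2 fold change of −0.47 and overlap between the genotypes. The part of these cell types in the factor values was not tested. In RNA of whole glands, fewer cells of a type and less RNA per cell cannot be told apart.

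**Figure D4:**
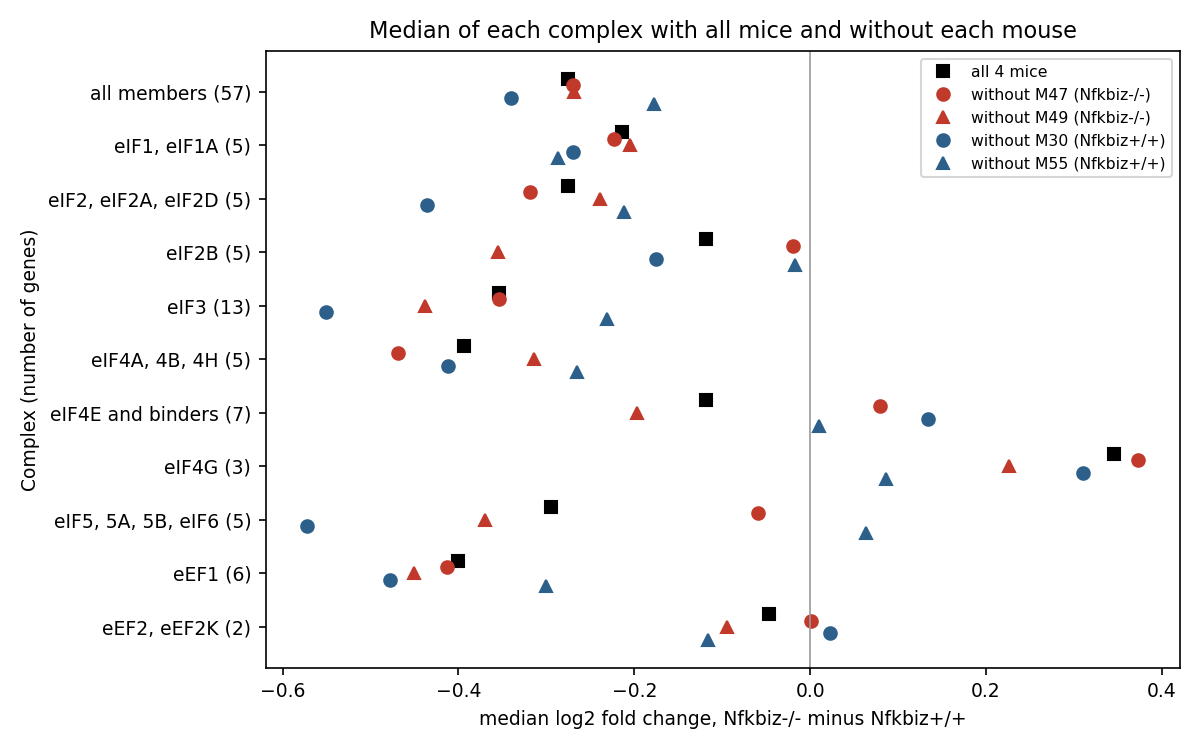
Median log2 fold change (*Nfkbiz*-/- minus *Nfkbiz*+/+) of each complex with more than 1 gene, with all 4 mice (black squares) and without each mouse in turn (red, an *Nfkbiz*-/- mouse left out; blue, an *Nfkbiz*+/+ mouse left out). The medians of eIF1, eIF2, eIF2B, eIF3, the eIF4A group and eEF1 stay below 0 in each case, that of eIF3 between −0.55 and −0.23. The eIF4G median stays above 0, and those of the eIF4E group, the *Eif5* and *Eif6* group and *Eef2* with *Eef2k* cross 0.

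Compared complex by complex, the medians of eIF1, eIF2, eIF2B, eIF3, the eIF4A group and eEF1 stayed negative whichever mouse was left out. All 6 eEF1 genes and all 5 of the eIF2 group were negative in each of these 4 fits, as were all 13 eIF3 genes without M47, without M49 and without M30, and 12 of 13 without M55. A gene at which both *Nfkbiz*-/- mice lie below both *Nfkbiz*+/+ mice must stay negative in each such fit. Apart from *Eif3j2*, these counts thus restate the separation given above. The eEF1 median was between −0.48 and −0.30 and the eIF2 median between −0.44 and −0.21. That of the eIF4A group was between −0.47 (without M47) and −0.265 (without M55), with 4 of 5 genes negative in each fit. The eIF4G median was between 0.09 and 0.37. In contrast, the medians of the eIF4E group, of the *Eif5* and *Eif6* group and of *Eef2* with *Eef2k* changed sign. With at most 13 genes a complex and 2 mice a genotype, no test was made of the differences between complexes.

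Genomic span and fold change were weakly related. The clusters of the 57 genes spanned a median of 15281 bases. The 18 genes under 10 kb had a median log2 fold change of −0.38, with 16 negative. The 34 genes of 10 to 50 kb had one of −0.27, with 25 negative, and the 5 genes over 50 kb had one of −0.12, with 4 negative. Spearman's rho between span and log2 fold change was 0.26 across the 57 genes against 0.11 across the 22142 clusters with a position and 0.24 across the 11074 of them above the median signal. Genes are not independent replicates and all share the same 4 arrays, and this comparison was chosen after the values were seen.

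The start regions of the lower genes are shown so that the motifs counted here can be read in them. Windows from 250 bases before to 50 bases after the annotated start were found in the RefSeq promoter table (GRCm38.p6) for 44 of the 57 genes, in 58 windows, and among the 8 genes with an unadjusted p under 0.05 for the 5 below. Each is printed 5′ to 3′ on the strand of the gene from 250 bases before the start to 10 bases after it, and capitals mark a match to 1 of the 4 motifs searched on both strands. The motifs were the E-box CACGTG, the ETS-type motif CCGGAAGT, the TATA box TATAAA and the kappaB consensus. In the member windows no match overlapped one of another motif, and windows of 1 gene can overlap each other.
Eif1b, chr9:120492356-120492615, + strand: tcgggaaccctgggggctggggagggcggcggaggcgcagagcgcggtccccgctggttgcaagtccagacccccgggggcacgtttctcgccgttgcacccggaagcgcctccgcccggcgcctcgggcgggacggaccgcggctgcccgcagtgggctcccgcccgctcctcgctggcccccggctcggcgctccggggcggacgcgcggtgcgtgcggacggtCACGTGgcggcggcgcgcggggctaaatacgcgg
Eif4a1, chr11:69672414-69672673, − strand: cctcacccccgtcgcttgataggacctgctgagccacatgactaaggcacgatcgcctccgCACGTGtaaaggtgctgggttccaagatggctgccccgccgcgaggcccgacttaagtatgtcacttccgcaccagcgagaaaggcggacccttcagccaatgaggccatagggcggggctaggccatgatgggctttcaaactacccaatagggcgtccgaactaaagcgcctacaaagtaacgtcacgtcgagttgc
Eif3f, chr7:108934165-108934424, + strand: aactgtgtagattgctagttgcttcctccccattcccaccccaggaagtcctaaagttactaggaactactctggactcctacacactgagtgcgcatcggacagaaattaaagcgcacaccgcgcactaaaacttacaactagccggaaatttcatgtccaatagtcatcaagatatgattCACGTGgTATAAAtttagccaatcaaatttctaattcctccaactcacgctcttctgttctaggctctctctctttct
Eef1b2, chr1:63176581-63176840, + strand: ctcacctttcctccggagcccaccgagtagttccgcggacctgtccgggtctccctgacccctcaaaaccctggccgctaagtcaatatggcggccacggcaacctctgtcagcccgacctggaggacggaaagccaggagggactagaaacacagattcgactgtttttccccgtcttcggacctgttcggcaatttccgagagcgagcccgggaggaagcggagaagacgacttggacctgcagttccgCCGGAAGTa
Eif1, chr11:100319699-100319958, + strand: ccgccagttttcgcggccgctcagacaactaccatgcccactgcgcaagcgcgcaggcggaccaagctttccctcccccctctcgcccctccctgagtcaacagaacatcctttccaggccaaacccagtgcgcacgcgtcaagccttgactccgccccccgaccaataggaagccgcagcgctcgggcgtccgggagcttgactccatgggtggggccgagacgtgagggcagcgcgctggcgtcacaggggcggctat

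CACGTG, the site of MYC, USF and related factors, occurred in 14 of the 58 member windows (24.1%), against 7.15% of all 32851 windows, and in 12 of the 44 genes. It began 24 bases before the start in *Eif1b*, 68 before in *Eif3f* and 189 before in *Eif4a1*. It also occurred in *Eef2*, *Eif4g1* and *Eif5a2*, with log2 fold changes of −0.04, 0.35 and 0.46, genes on either side of 0. CCGGAAGT occurred in 10 windows (17.2%, against 3.89%), in *Eef1b2* from the second base of the transcript on. TATAAA occurred in 4 windows (6.9%, against 13.6%), among them that of *Eif3f*, and the kappaB consensus in 3 (5.17%, against 8.46%), in *Eef1a1* and *Eef2k*. The window of *Eif1* held none of the 4 motifs. The motifs came from a wider scan and were chosen after the values were seen, so the differences between these shares were not tested. The comparison was with all windows, not with those of genes of similar signal. A match describes letters in a window and is neither a binding site nor a cause.

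Other genes of translation and its control were taken from 9 lists of 99 genes, of which 95 were found. Called lower were 5 and called higher 3, together 8.42%, against 6.62% of all clusters called in either direction. *Eif2ak2* and *Rptor* were called under each alternative run, and the other 6 lost their call under at least 1. The clearest was *Eif2ak2*, which encodes PKR, an interferon-induced eIF2α kinase activated by double-stranded RNA. It measured 7.60 in M47 and 7.48 in M49, against 6.38 in M30 and 6.24 in M55 on the log2 scale. Both genotypes were tight and far apart, and the log2 fold change was 1.22 (SE 0.20, unadjusted p = 0.000415, limma adjusted p = 0.468), between 1.16 and 1.29 without any 1 mouse. The other kinase genes differed less. *Eif2ak3*, the endoplasmic reticulum kinase PERK, had a log2 fold change of 0.33 and *Eif2ak1* of 0.16. *Ppp1r15a*, which encodes the inducible phosphatase subunit GADD34, had one of −0.63 with an unadjusted p of 0.0709 from limma. None of the 14 targets of the integrated stress response, the programme that follows eIF2α phosphorylation, was called (against 6.62% of all clusters). None had an unadjusted p under 0.05 from limma (against 5.07% of all clusters lower and 4.01% higher). With 14 genes a count of 0 is near these shares and does not show that the programme was absent. The median of the 14 targets was 0.07. Among them *Vldlr* had a log2 fold change of 0.28, *Chac1* of 0.29 and *Phgdh* of −0.18. *Atf3*, an immediate early gene as well, measured 8.83 in M47 and 7.86 in M49, against 6.14 in M30 and 9.37 in M55 on the log2 scale, so the *Nfkbiz*+/+ mice were the extremes.

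**Figure D5:**
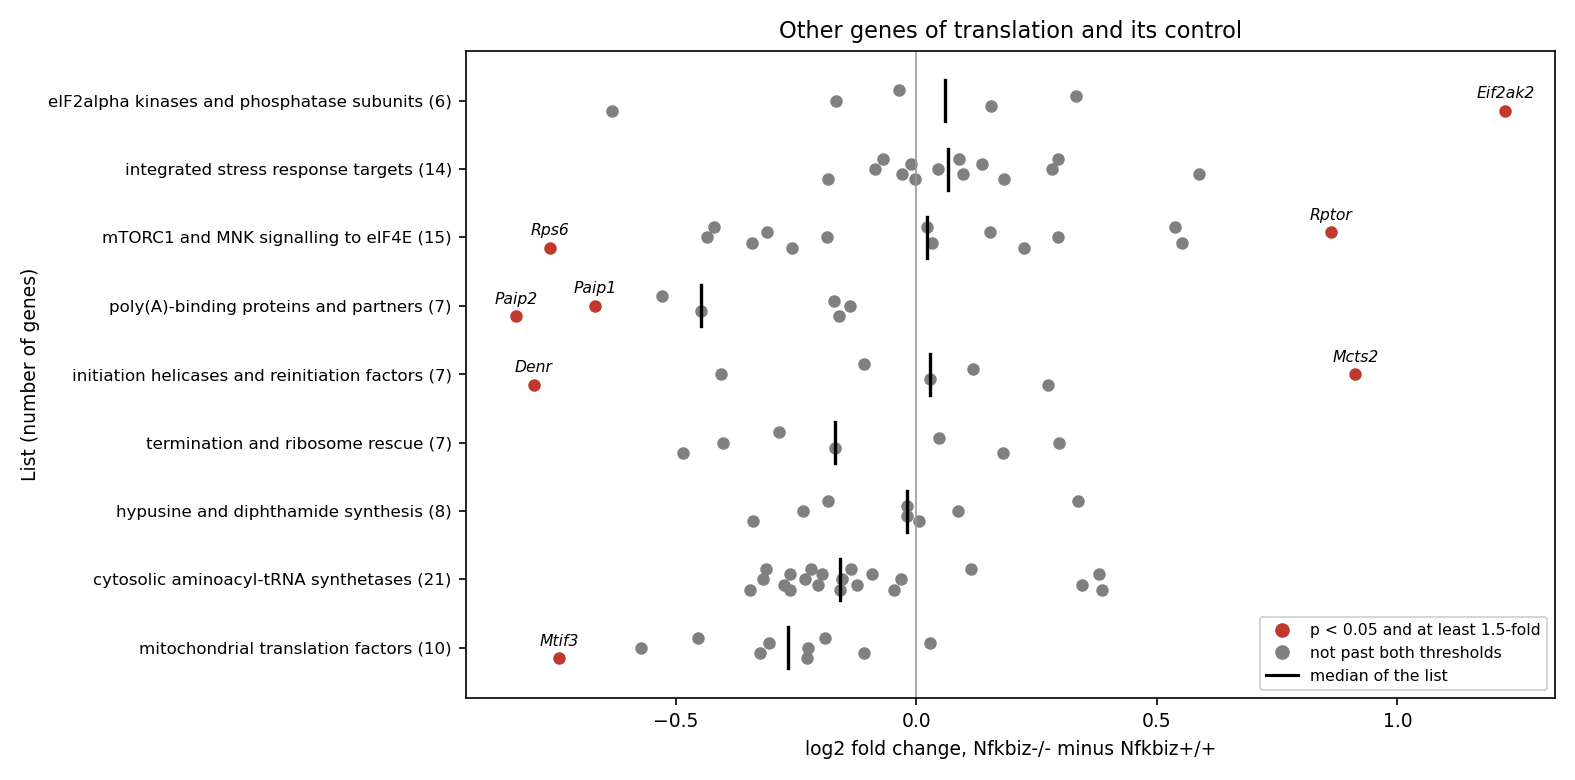
Log2 fold change (*Nfkbiz*-/- minus *Nfkbiz*+/+) of 95 other genes of translation and its control, 1 point per gene, in 9 lists with a black line at each median and red points for the 8 genes past both thresholds. *Eif2ak2* lies farthest to the right at 1.22, and all 7 genes of poly(A)-binding proteins and their partners lie below 0.

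The mTORC1 and MNK genes, which signal to eIF4E and its inhibitors, went both ways, with a median of 0.02. *Rptor*, which encodes the scaffold Raptor of mTORC1, measured 6.89 in M47 and 6.73 in M49, against 5.83 in M30 and 6.07 in M55 on the log2 scale. It was called higher, with a log2 fold change of 0.86 (SE 0.21, limma adjusted p = 0.468). *Mtor*, the kinase itself, measured 7.64 in M47 and 7.52 in M49, against 7.08 in M30 and 7.003 in M55 on the log2 scale. Its log2 fold change of 0.54 (SE 0.20, unadjusted p = 0.0307, limma adjusted p = 0.514) was under the fold threshold. *Rps6*, the ribosomal protein that S6 kinase phosphorylates, measured 8.93 in M47 and 8.70 in M49, against 9.43 in M30 and 9.72 in M55 on the log2 scale. It was called lower, with a log2 fold change of −0.76 (SE 0.22, limma adjusted p = 0.468). *Mknk2*, a kinase of eIF4E, had a log2 fold change of −0.42 with an unadjusted p of 0.0805 from limma.

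All 7 genes of poly(A)-binding proteins and their partners had a negative log2 fold change (against 53.1% of all clusters), with a median of −0.45. Of these, 2 were called lower (against 3.69% of all clusters). *Paip2* encodes an inhibitor of the poly(A)-binding protein and measured 7.03 in M47 and 7.18 in M49, against 7.72 in M30 and 8.16 in M55 on the log2 scale, with a log2 fold change of −0.83 (SE 0.23, limma adjusted p = 0.468). *Paip1*, which encodes an activator of translation that binds the same protein, measured 5.84 in M47 and 5.87 in M49, against 6.35 in M30 and 6.70 in M55 on the log2 scale, with a log2 fold change of −0.67 (SE 0.22, limma adjusted p = 0.477). At both the genotypes stood apart, with M55 above M30. *Pabpc1*, the main cytoplasmic poly(A)-binding protein gene, had a log2 fold change of −0.53, and *Paip2b* had one of −0.45.

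*Denr* and *Mcts1* encode DENR and MCT-1, the partners of a reinitiation complex. *Mcts1* measured 5.94 in M47 and 6.59 in M49, against 6.05 in M30 and 6.43 in M55 on the log2 scale, with overlap and a log2 fold change of 0.03 (SE 0.28, limma adjusted p = 0.991). *Denr* measured 5.95 in M47 and 5.62 in M49, against 6.41 in M30 and 6.75 in M55 on the log2 scale, and was called lower at −0.80 (SE 0.23, limma adjusted p = 0.468). *Mcts2*, an intronless copy of *Mcts1*, measured 7.52 in M47 and 7.74 in M49, against 6.48 in M30 and 6.96 in M55 on the log2 scale, and was called higher at 0.91 (SE 0.24, limma adjusted p = 0.468). Probes for such near-identical copies may share signal, so the value of *Mcts2* is uncertain in that respect. In the same list *Abcf1* had a log2 fold change of −0.41 and the scanning helicase gene *Dhx29* of 0.27.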

How the data were processed

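Labels gave the genotype of each mouse. The authors prepared RNA with the WT PLUS kit for 1 Affymetrix array per mouse. They corrected background, quantile-normalized and summarized probes to genes by RMA in Affymetrix Power Tools, and deposited log2 values. The same values were deposited in 2 tables, and 1 of them also holds the authors' fold changes and p-values, which were not used. Quantile normalization forces 1 distribution on all arrays, so a shift common to all genes cannot be seen. The log2 values were used as deposited. All 22206 transcript clusters were compared with limma 3.58.1 (lmFit, eBayes; R 4.3.3), at 2 residual and 5.53 prior degrees of freedom, with Benjamini-Hochberg adjustment over all of them, after the steps were tested on simulated data. Genes were called at an unadjusted p of 0.05 and a fold change of 1.5. The members, gene lists, tests and alternatives were chosen with earlier results of these data known, and the motifs (from a wider scan), the spans and the division of eIF3 after the values were seen. Named with the value of each mouse were the members past both thresholds, up to 2 members of each complex with the largest moderated statistic and 9 core factors, and, among the other genes, those past both thresholds, with *Atf3*, *Mtor*, *Mtif2* and *Mcts1*. Up to 4 genes of each list were named with a fold change. *Eif3f* was added after its value was seen. All 57 genes were found in RefSeq (GRCm38.p6) by identifier, and 56 overlapped the position there. Arrays carry no read depth, and their number limits the precision. Alternatives were the t-test that the methods name, in its equal-variance and unequal-variance forms, limma with an intensity trend, a further quantile normalization, median-centred arrays, a filter on dim clusters, 1 cluster per gene, the dimmest cluster of a gene, and leaving out each mouse. In these last fits the lone mouse of a genotype was taken to vary as the other genotype does.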

Additional observations from a re-analysis of the deposited data

How the results depend on the processing

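The count of 5 called factor genes was 4 or 5 under the intensity trend, both normalizations, the filter on dim clusters, 1 cluster per gene and the dimmest cluster. By the methods' t-test it was 2 with equal variances (*Eif3h* and *Eif3i*) and 1 with unequal variances (*Eif3i*), where 2.14% and 0.955% of all clusters were called. Without 1 mouse it lay between 1 (without M49) and 14 (without M30), with 3 without M47 and 2 without M55, where 5.08%, 12.1%, 5.05% and 8.93% of all clusters were called. The 8 called other genes were 3 by either t-test (*Eif2ak2*, *Mtif3* and *Rptor*), and between 4 (4.21% without M49, against 5.08% of all clusters) and 17 (17.9% without M30, against 12.1%) without 1 mouse. Without 1 mouse the median log2 fold change was between −0.34 and −0.18 for all 57 genes, −0.48 and −0.30 for eEF1, −0.44 and −0.21 for eIF2, −0.55 and −0.23 for eIF3, −0.20 and 0.13 for the eIF4E group, −0.35 and −0.017 for eIF2B and 0.086 and 0.37 for eIF4G. The sign turned without 1 mouse for *Eef2* (−0.16 to 0.080), *Eef2k* (−0.31 to 0.21), *Eif4e* (−0.59 to 0.0096), *Eif4ebp1* (−0.79 to 0.080), *Atf3* (−1.03 to 2.20), *Dph3* (−0.88 to 0.20), *Dph5* (−0.65 to 0.18), *Etf1* (−0.83 to 0.028) and *Phgdh* (−0.59 to 0.22). The cause was not tested. *Eif4a1* was not called after a further quantile normalization (−0.58) and *Eif1* not after median-centring (unadjusted p of 0.0548 from limma). Each gene or group under each alternative counts as 1 outcome here. Of those for single genes and the remaining groups, 680 stayed the same, 39 lost a call, 16 gained one and 10 turned sign. In a further 8 the median of a group moved by at least its spread within a genotype. Of those for the counts of called genes and the medians of the set and the main complexes, 60 stayed the same and 20 moved. No paired analysis was possible because the mice carry no shared numbers.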

Other observations

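The factors of mitochondrial translation, a separate machinery with its own initiation and elongation proteins, lay mostly below their *Nfkbiz*+/+ level as well. Of 10 genes, 9 had a negative log2 fold change (against 53.1% of all clusters), with a median of −0.27, and 1 was called (against 6.62%). *Mtif3*, a mitochondrial initiation factor gene, measured 4.32 in M47 and 4.17 in M49, against 4.89 in M30 and 5.09 in M55 on the log2 scale. Its log2 fold change was −0.74 (SE 0.21, limma adjusted p = 0.468) and between −0.84 and −0.64 without any 1 mouse. *Mtif2*, the other initiation factor gene, measured 5.19 in M47 and 5.02 in M49, against 5.93 in M30 and 5.43 in M55 on the log2 scale, with M30 rather than M55 the highest. Its log2 fold change was −0.57 (SE 0.24, unadjusted p = 0.0465 from limma), under the fold threshold. *Tufm*, the mitochondrial counterpart of eEF1A, had one of −0.45 and *Gfm2* of −0.33. The mean of the 10 genes was 5.36 in M47 and 5.36 in M49, against 5.70 in M30 and 5.64 in M55, so M30 and M55 were closer to each other than to M47 or M49.

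Of 21 cytosolic aminoacyl-tRNA synthetase genes and their scaffolds, 17 had a negative log2 fold change (against 53.1% of all clusters). Their median was −0.16, and none was called (against 6.62% of all clusters). None had an unadjusted p under 0.05 from limma (against 5.07% of all clusters lower and 4.01% higher). The ones with the highest statistic ran both ways. *Eprs* had a log2 fold change of 0.38, *Iars* of 0.39 and *Wars*, an interferon-induced synthetase gene, of 0.34, against −0.31 for *Dars*. None of the 7 genes of termination and ribosome rescue was called (none also at an unadjusted p of 0.05 from limma). Their log2 fold changes included *Gspt1* (eRF3) at −0.49, *Etf1* (eRF1) at −0.40, *Abce1* at −0.29 and *Hbs1l* at 0.30. Nor did any of the 8 genes that make hypusine on eIF5A and diphthamide on eEF2 pass at either threshold. Among them *Dph3* was at −0.34, *Dph5* at −0.24, *Dhps* at −0.18 and *Dnajc24* at 0.34. With 7 and 8 genes, counts of 0 are near the shares of all clusters given above and are no result about these pathways.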
